A study of Mus musculus with 9 samples.

Results

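The kinesin motor family was represented on the arrays by 37 genes, out of 19057 named genes in all. A gene was counted as a kinesin if the symbol that the platform annotation gives for its probe started with Kif or Kifc followed by a digit. The rule goes by name alone, so that Cenpe, a kinesin of the kinetochore with another kind of name, was not a member. The 37 genes carried 88 probes. Of these genes 28 could be tested, with 45 probes, because the mean signal of a probe reached the background level of 100 (6.64 on the log2 scale) in at least 1 of the groups. The members were sorted by their known roles into 13 mitotic kinesins (9 of them tested), 17 cargo kinesins (15 tested) and 7 kinesins of cilia and other roles (4 tested).

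The cells were HR+ cells, the luminal mammary cells that sense estrogen and progesterone through their receptors. They came from FVB/N females (FVB in the sample labels) that were virgin and in metestrus, at day 3 of pregnancy or at day 7 of pregnancy, with 3 animals per group and 9 arrays in all. Virgin controls were 11 weeks old and the other females were mated at 9 to 11 weeks, and all animals, the virgin controls included, had received the thymidine analog EdU 24 hours before harvest. From each animal 1000 luminal cells without CD45 were sorted by Sca1 and CD49b, and an aliquot worth 167 cells was amplified in 2 rounds for the array. In such a pooled sample, a larger share of cells that use a gene and more RNA of that gene per cell cannot be told apart.

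Kinesins are motors that use ATP to move along microtubules. Mitotic kinesins build the spindle, position the chromosomes and organize the central spindle during cytokinesis, and most of them are made mainly as a cell approaches division. Cargo kinesins carry vesicles, mitochondria and other loads through the cytoplasm and are used by resting cells too. A further set works in cilia or trims microtubule ends. In the mammary gland, early pregnancy is known for a burst of epithelial division followed by the growth of alveoli, so that the family holds genes tied to division beside genes that are not.

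Genes were counted as changed where a probe of theirs, or more than 1, differed by 2-fold or more, a log2 difference of at least 1, with an adjusted p of 0.10 or less in limma, a linear model that steadies the spread of each probe with that of the others. All values are normalized log2 signals, differences are log2 fold changes with their standard error (SE), and each group had n = 3 animals. Levels are compared between groups on the same probe, since probes differ in how well they bind.

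Arrays of the same group correlated at 0.967 to 0.992 over the tested probes. Before normalization the mean signal was 284 to 316 in virgin, 353 to 520 at day 3 and 348 to 440 at day 7. The luminal keratin Krt8 and the HR+ marker Foxa1 were above background on all 9 arrays, whereas the estrogen receptor gene Esr1 lay close to background (6.54 to 7.13). HR+ markers also differed by stage. Of 10 tested, 2 were called higher and 1 lower at day 3 than in virgin, and 2 higher and 3 lower at day 7. Over all tested genes the shares were 2.97% and 3.15% at day 3, and 3.71% and 3.86% at day 7. Foxa1 was among those lower at day 7 (-1.26), and Tnfsf11 was higher at day 3 (2.25) and day 7 (4.04). Markers of other cells were present too. The mean of 9 basal genes ranged over 6.60 to 7.21 in virgin, 7.01 to 7.93 at day 3 and 7.65 to 8.65 at day 7, although the basal keratin Krt5 stayed under background on all arrays. The mean of 7 macrophage genes ranged over 7.02 to 7.72, 6.60 to 6.72 and 7.36 to 7.50 in the same order of stages, with Adgre1 and C1qa under background throughout. For 11 markers of HR- luminal cells the ranges were 7.53 to 8.03, 7.06 to 7.44 and 7.29 to 8.07. For 7 fibroblast genes they were 7.23 to 7.29, 7.22 to 7.24 and 6.87 to 7.01, with Col1a1 and Lum under background throughout. Dcn of that list read 10.97 to 11.48 in virgin, 11.18 to 11.51 at day 3 and 8.67 to 9.32 at day 7. It was called lower at day 7 than in virgin (-2.24), while a dimmer probe gave -0.91 without a call. The part of such cells in the kinesin results was not tested.

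At day 3 of pregnancy, HR+ cells held more transcript of 6 of the 9 tested mitotic kinesins than virgin cells, and of none less. Kif22, Kif23, Kif4, Kif15, Kif2c and Kif20b were the 6. For comparison, 2.97% of all 11261 tested genes were called higher at day 3 and 3.15% lower. The median log2 difference was 1.15 over the 9 mitotic kinesins, against -0.10 over the 15 tested cargo kinesins and -0.01 over all tested genes. Of the 9 tested mitotic genes, Kif11 and Kif18b passed the filter on dim probes through day 3 alone, so that neither could be tested unless it was high there. Without any filter, 5 of all 13 mitotic kinesins were called higher at day 3, the gene lost being Kif2c.

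**Figure D1:**
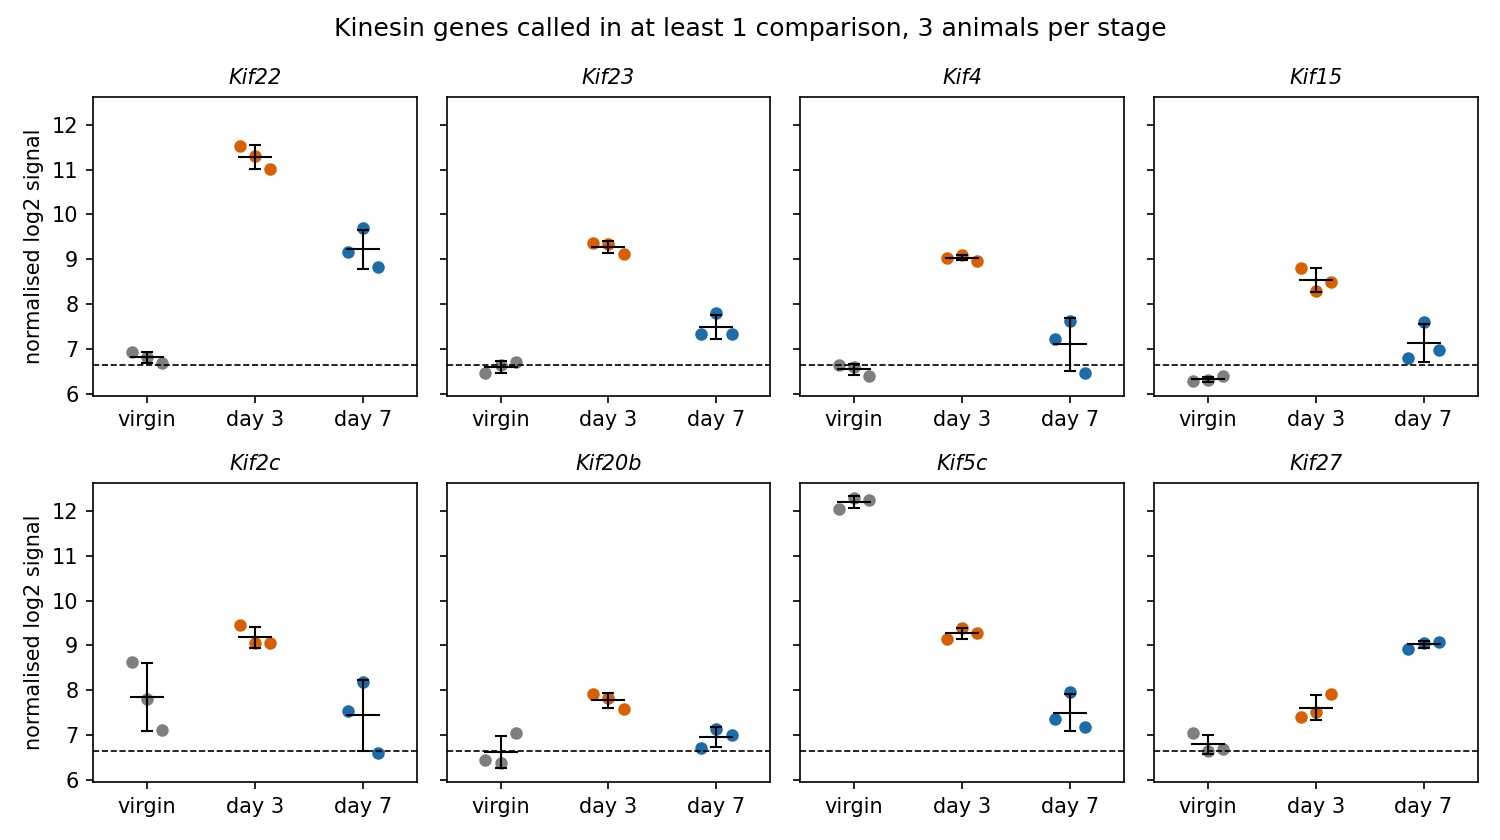
Normalized log2 signal (vertical axis) of the 8 kinesin genes called in at least 1 comparison, by stage (horizontal axis: virgin, day 3, day 7), with a point per animal, a bar at the mean, whiskers of 1 SD and a dashed line at the background of 6.64. For Kif23 the brighter of its called probes is drawn. The 6 mitotic kinesins peak at day 3, Kif5c is lower at each later stage and Kif27 is highest at day 7.

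Kif22, also called Kid, binds DNA and pushes chromosome arms toward the spindle equator. Its signal was 6.94, 6.82 and 6.69 in the virgin animals, 11.53, 11.30 and 11.01 at day 3, and 9.16, 9.69 and 8.83 at day 7. The virgin values lay just above background and no value of any group overlapped with another group. At day 3 Kif22 was 22.1-fold higher than in virgin (4.47 ± 0.22 SE, limma adjusted p = 1.3e-05). By day 7 it was still 5.32-fold higher than in virgin (2.41 ± 0.22, adjusted p = 0.000178), while it was lower than at day 3 by 4.16-fold (-2.05 ± 0.22, adjusted p = 0.000824). Of the mitotic kinesins, Kif22 alone was called against virgin at day 7.

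Kif4 travels with chromosome arms and shapes the central spindle. The virgin animals gave 6.63, 6.60 and 6.40, all under background, with 9.03, 9.09 and 8.97 at day 3 and 7.22, 7.63 and 6.46 at day 7. Day 3 stood clear of both other stages, and a day 7 animal fell back into the virgin range. Where every array of a group was under background, the fold is given as a lower bound with the arrays of that group set at the background, while the log2 differences are those measured. Kif4 was thus at least 5.23-fold higher at day 3 than in virgin (2.49 ± 0.25, adjusted p = 0.000418). At day 7 it was lower than at day 3 (-1.93 ± 0.25, adjusted p = 0.00191), and its difference from virgin was 0.56 ± 0.25 (adjusted p = 0.168). The other tested probes of Kif4 had a much smaller difference at day 3, of 0.31 and 0.38 (at least 1.09-fold and 1.11-fold). They passed the adjusted p (0.0727 and 0.0223 in limma) but not the minimum fold, and their day 3 and virgin animals did not overlap.

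Kif15 is a plus-end motor that helps keep the spindle bipolar. It measured 6.27, 6.31 and 6.39 in virgin, 8.81, 8.29 and 8.49 at day 3, and 6.79, 7.60 and 6.97 at day 7. All virgin arrays were under background, and the stages did not overlap. The signal was at least 3.70-fold higher at day 3 than in virgin (2.21 ± 0.21, adjusted p = 0.000318) and lower at day 7 than at day 3 (-1.41 ± 0.21, adjusted p = 0.0034). Against virgin, the day 7 difference of 0.80 ± 0.21 had an adjusted p of 0.0313 but missed the minimum fold. The other 3 probes of Kif15 had no group mean above background.

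Kif23, or MKLP1, is the motor subunit of centralspindlin, the complex that bundles microtubules at the site of cell cleavage. Its probes disagreed. A called probe read 6.45, 6.63 and 6.70 in virgin, 9.37, 9.33 and 9.11 at day 3, and 7.32, 7.79 and 7.32 at day 7, with no overlap between stages. Of its virgin arrays, 1 of 3 reached background. This probe was 6.38-fold higher at day 3 than in virgin (2.67 ± 0.15, adjusted p = 3.02e-05) and 3.46-fold lower at day 7 than at day 3 (-1.79 ± 0.15, adjusted p = 0.000258), and its day 7 difference from virgin was 0.88 ± 0.15 (adjusted p = 0.00421), under the minimum fold. A further called probe of Kif23 was under background in virgin at 6.51, 6.43 and 6.38, read 7.94, 8.00 and 7.94 at day 3, and 6.57, 6.81 and 6.83 at day 7. On this probe the day 3 signal was at least 2.49-fold above virgin (1.52 ± 0.09, adjusted p = 4.72e-05). The brightest Kif23 probe did not show the pattern. It gave 8.26, 8.04 and 8.16 in virgin, 7.50, 7.61 and 8.21 at day 3, and 7.97, 7.84 and 7.71 at day 7, and its day 3 difference was -0.38 ± 0.18 (adjusted p = 0.21). With the brightest probe alone deciding, Kif23 would not be called and the count at day 3 would be 5.

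Kif20b, or MPP1, is a motor of the midbody, where daughter cells part. It read 6.45, 6.37 and 7.04 in virgin, 7.91, 7.83 and 7.58 at day 3, and 6.71, 7.14 and 7.01 at day 7. Day 3 lay above both other stages, which overlapped each other, and 1 of 3 virgin arrays reached background. The day 3 signal was 2.22-fold that of virgin (1.15 ± 0.19, adjusted p = 0.00484), and the day 7 signal differed from day 3 by -0.82 ± 0.19 (adjusted p = 0.0255), short of the minimum fold.

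Kif2c, or MCAK, removes tubulin from microtubule ends at centromeres and was the most variable of the called mitotic kinesins. In the virgin animals it read 8.64, 7.80 and 7.11, at day 3 it read 9.46, 9.05 and 9.05, and at day 7 it read 7.55, 8.18 and 6.61. The virgin animals spread about as widely as those of day 7, and both stayed under the lowest day 3 animal. The difference was 1.34 ± 0.44 at day 3 against virgin (adjusted p = 0.081) and -1.74 ± 0.44 at day 7 against day 3 (adjusted p = 0.0362). The day 3 call was lost without virgin replicate 2 (adjusted p = 0.163) or 3 (0.218), and without any of the day 3 animals (0.151 to 0.223) or day 7 replicate 1 (0.112). The call between the days was lost without day 3 replicate 1 (adjusted p = 0.128).

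The promoters of the 4 mitotic kinesins with the largest called change at day 3 are given here, as their genes moved together and mitotic genes are known for shared promoter elements. TTTGAA is a sequence of the cell cycle genes homology region, an element known from promoters of genes used late in the cell cycle, and CCAAT is the box often found beside it. Each window runs from 250 bases before to 50 bases after the transcription start and is taken from RefSeq on the GRCm38.p6 build. Capitals mark TTTGAA and CCAAT on either strand, so that TTCAAA and ATTGG are the same motifs on the opposite strand. The motifs do not overlap each other in these windows.
Kif22, chr7:127042371-127042670, minus strand: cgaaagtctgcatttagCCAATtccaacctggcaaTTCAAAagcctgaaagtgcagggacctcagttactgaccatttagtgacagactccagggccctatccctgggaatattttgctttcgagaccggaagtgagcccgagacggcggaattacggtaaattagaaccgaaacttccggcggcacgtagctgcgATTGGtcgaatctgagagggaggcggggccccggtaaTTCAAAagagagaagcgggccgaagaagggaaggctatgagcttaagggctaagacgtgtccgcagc
Kif23, chr9:61946750-61947049, minus strand: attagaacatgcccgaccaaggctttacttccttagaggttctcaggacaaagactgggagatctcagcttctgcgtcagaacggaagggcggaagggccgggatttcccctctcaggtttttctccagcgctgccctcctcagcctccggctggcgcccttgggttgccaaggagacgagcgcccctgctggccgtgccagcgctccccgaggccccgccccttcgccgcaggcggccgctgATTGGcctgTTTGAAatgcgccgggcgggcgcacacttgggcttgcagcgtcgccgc
Kif4, chrX:100625815-100626114, plus strand: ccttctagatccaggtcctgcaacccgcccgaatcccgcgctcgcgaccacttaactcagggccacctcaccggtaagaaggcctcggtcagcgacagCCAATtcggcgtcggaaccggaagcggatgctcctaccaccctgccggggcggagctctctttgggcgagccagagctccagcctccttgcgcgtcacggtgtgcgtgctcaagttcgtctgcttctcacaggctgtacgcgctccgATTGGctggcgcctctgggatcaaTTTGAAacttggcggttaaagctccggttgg
Kif15, chr9:122950831-122951130, plus strand: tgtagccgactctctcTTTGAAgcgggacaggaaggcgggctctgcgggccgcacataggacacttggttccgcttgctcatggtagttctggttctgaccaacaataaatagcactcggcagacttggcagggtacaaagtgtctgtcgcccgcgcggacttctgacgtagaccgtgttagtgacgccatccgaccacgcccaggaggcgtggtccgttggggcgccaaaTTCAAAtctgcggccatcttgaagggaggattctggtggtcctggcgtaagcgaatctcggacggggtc

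With the first transcribed base counted as 1, TTTGAA began at -17 in the Kif22 promoter and again at -215, at 3 in that of Kif23, at 20 in that of Kif4, and at -19 and -234 in that of Kif15. A CCAAT box began at -54 and -233 for Kif22, at -7 for Kif23, and at -5 and -152 for Kif4, and these letters were absent from the Kif15 window. Promoters were matched for 30 of the 37 kinesin genes, some of them with more than 1 window because of alternative starts. TTTGAA stood in 10 of 12 mitotic kinesin windows (83.3%), in 1 of 13 cargo kinesin windows (7.69%) and in 1 of 9 windows of the other kinesins (11.1%), while 17.9% of all 32851 windows held it. The mitotic windows without it were those of Kif18a and Kif2b. In the last 100 bases of the window, a range chosen after the positions were seen, it stood in 9 of 12 mitotic windows (75.0%) and in 4.94% of all windows. CCAAT stood in 8 of 12 mitotic windows (66.7%), 4 of 13 cargo windows (30.8%) and 37.4% of all windows. The median GC content was 61.5% for mitotic, 69.3% for cargo and 52.7% for all windows. A match of letters is a description and not evidence of a working site.

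The 3 tested mitotic kinesins that were not called at day 3 had small positive differences with an adjusted p under 0.10. Kif11, or Eg5, the motor that pushes the spindle poles apart, read 6.43, 6.61 and 6.45 in virgin, 7.27, 7.19 and 7.16 at day 3, and 6.61, 6.64 and 6.58 at day 7. Its day 3 animals lay above all others, at 0.71 ± 0.08 over virgin (at least 1.48-fold, adjusted p = 0.00102). Kif18a, which dampens chromosome movements at the equator, differed by 0.47 ± 0.09 (adjusted p = 0.0105). Kif18b, which limits astral microtubules, differed by 0.54 ± 0.14 and 0.60 ± 0.14 on its tested probes (at least 1.39-fold and 1.23-fold, adjusted p = 0.0295 and 0.0234). Kif11 and Kif18b were under background in all virgin and all day 7 animals. The remaining mitotic members had no group mean above background and could not be compared. They were Kif20a, a motor of the central spindle, Kif2b, a depolymerase of kinetochores, Kifc1, which focuses spindle poles, and its near copy Kifc5b.

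At day 7 of pregnancy, 5 of the 9 tested mitotic kinesins were lower than at day 3 (Kif22, Kif4, Kif23, Kif2c and Kif15) and none was higher, while 2.29% of all tested genes were called lower and 2.75% higher. With the brightest probe alone deciding, Kif23 would not be called (0.07 ± 0.18) and the count would be 4. Kif20b, Kif11 (-0.60 ± 0.08), Kif18a (-0.43 ± 0.09) and Kif18b (-0.63 ± 0.14) passed the adjusted p but not the minimum fold. With day 7 under background, the bounds for Kif11 and this Kif18b probe were the same as against virgin, at least 1.48-fold and 1.39-fold. The median log2 difference of the 9 was -0.82, beside -0.01 over all tested genes. Against virgin, 1 of 9 was higher at day 7, with 3.71% of all genes called higher and 3.86% lower, and the median was 0.11. On the brightest probes 3 of 9 differences from virgin lay below 0, at -0.40 ± 0.44 for Kif2c, -0.31 ± 0.18 for Kif23 and -0.09 ± 0.14 for Kif18b, none of them called. The day 7 and day 3 comparisons share the virgin animals, so they are not separate measurements of them. Likewise, the rise from virgin to day 3 and the fall from day 3 to day 7 share the day 3 animals. The genes averaged next were picked by their day 3 call, a choice that favors high day 3 values. The mean over the 6 genes called at day 3 was 6.90, 6.76 and 6.72 in the virgin animals, 9.35, 9.15 and 9.04 at day 3, and 7.46, 8.01 and 7.20 at day 7. Kif23 entered this mean with the brighter of its called probes. On these probes, replicate 2 was the highest of the day 7 animals for all 6 genes. On the further called probe of Kif23 replicate 3 was the highest (6.83, with 6.81 in replicate 2), and on its brightest probe replicate 1 was (7.97). Replicate 2 had the lowest mean signal of the day 7 arrays before normalization, 348.

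**Figure D2:**
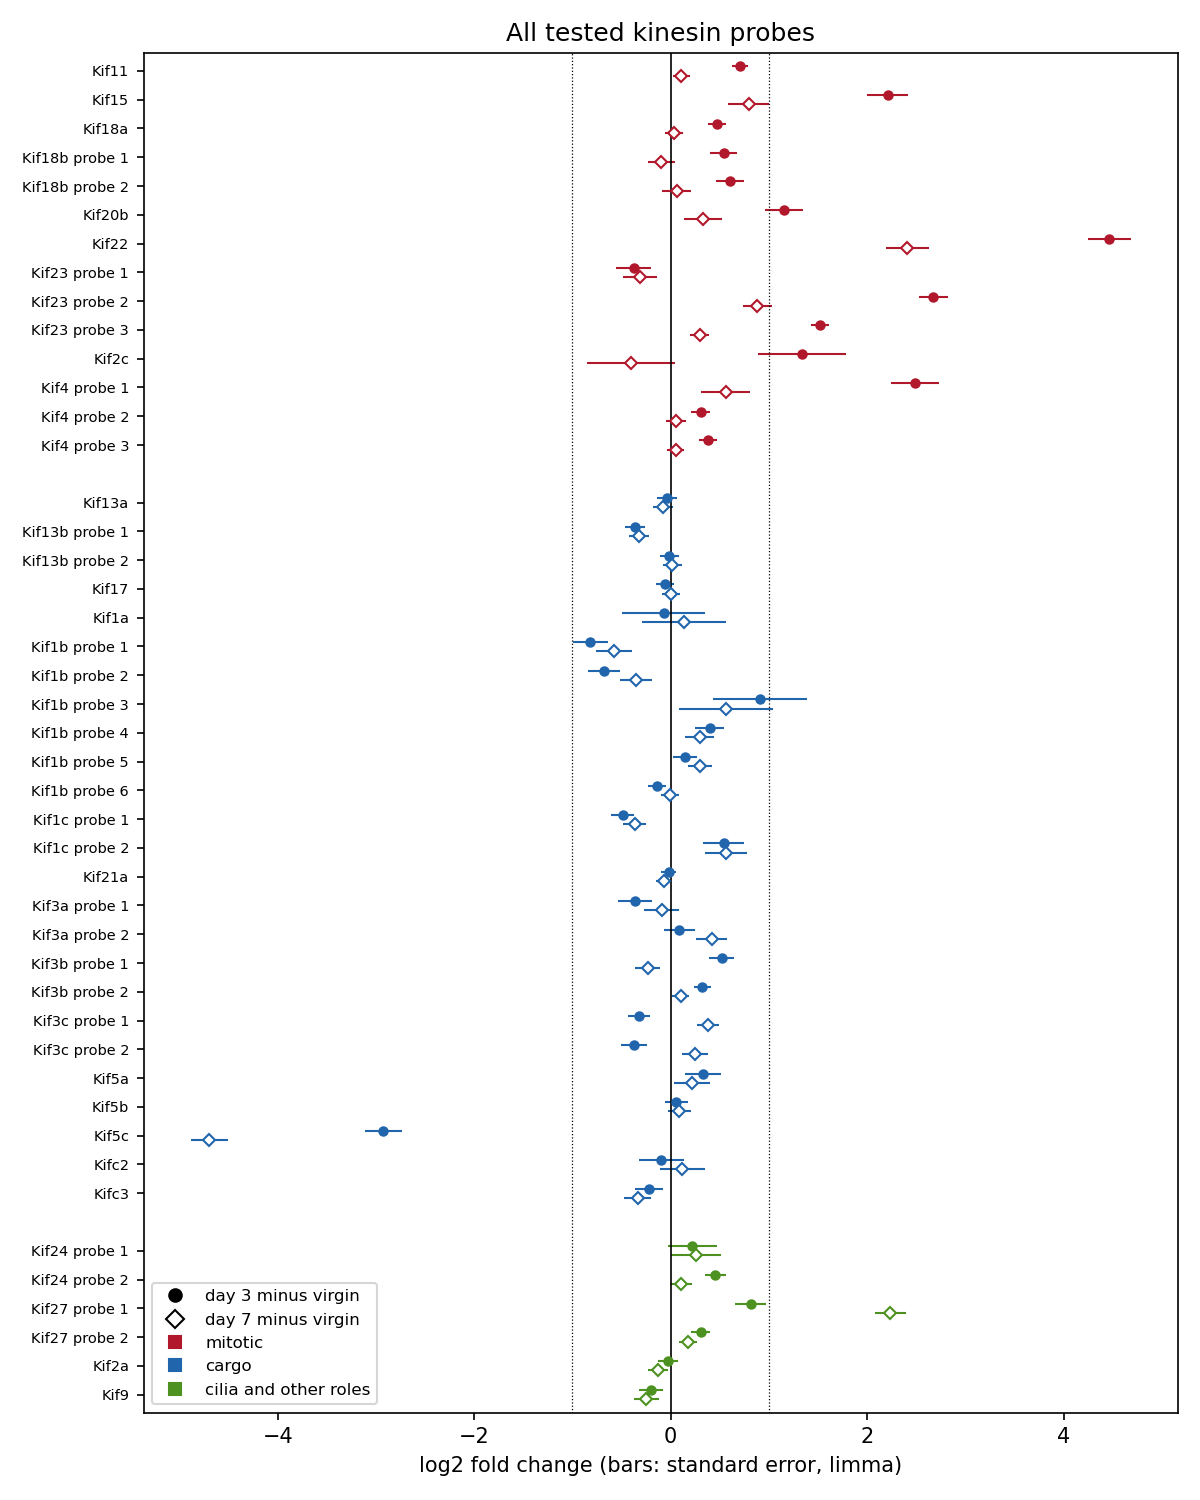
Log2 fold change against virgin (horizontal axis) of the 45 tested kinesin probes (rows, grouped by role), at day 3 (filled circles) and day 7 (open diamonds), with bars of 1 standard error from limma and dotted lines at a 2-fold change. The mitotic probes reach 4.47 at day 3, while among the cargo probes only Kif5c passes the 2-fold lines, at -2.93 and -4.70.

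Of 20 genes on the arrays that work with the mitotic kinesins in the spindle, 13 could be tested. At day 3, 9 of them were higher than in virgin and 0 lower, beside 2.97% and 3.15% of all tested genes. Their median was 1.68, beside -0.01 over all tested genes. Cdca8, a subunit of the chromosomal passenger complex, differed by 4.74 ± 0.31, Nusap1, which bundles spindle microtubules, by 3.66 ± 0.37, Prc1, which crosslinks microtubules in the central spindle and recruits Kif4, by 3.53 ± 0.31, and Bub1b, a kinase of the spindle checkpoint, by 3.43 ± 0.17. Another probe of Cdca8 had a difference of only 0.10. Against day 3, 9 of the 13 were lower at day 7 (median -1.38), led by Nusap1 at -3.03 ± 0.37, beside 2.29% of all tested genes. Cdca8 (2.41 ± 0.31), Prc1 (1.11 ± 0.31) and Bub1b (1.02 ± 0.17) were still higher than virgin at day 7. That is 3 of the 13, beside 3.71% of all tested genes. Dimmer tested probes of Bub1b and Cdca8 differed from virgin by 0.69 and -0.01 at day 7 and were not called. Day 7 replicate 2 was again the highest of its group, for 11 of the 13 genes. Cenpe, Racgap1, the partner of Kif23 in centralspindlin, and Ect2 had no group mean above background.

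Of the 15 tested cargo kinesins, 14 were called in no comparison. Among these, Kif13a, Kif17, Kif21a, Kif5a, Kif5b and Kifc3 had little room to fall. Their brightest probes averaged 6.57 to 6.84 over the 9 arrays, close to background, and Kifc3 passed the filter on dim probes through virgin alone. At day 3 against virgin 0 of 15 were called higher and 1 lower, at day 7 against virgin the counts were again 0 and 1, and the gene was Kif5c each time. These counts are close to the shares over all tested genes, 2.97% higher and 3.15% lower at day 3 and 3.71% higher and 3.86% lower at day 7. The medians were -0.10 at day 3 and -0.08 at day 7 against virgin, and 0.04 at day 7 against day 3. The brightest probes of the uncalled genes spanned -0.82 to 0.52 at day 3 and -0.58 to 0.38 at day 7 against virgin. At day 3, 12 of the 15 had a difference below 0. That majority was not kept when the arrays were scaled to a common median, where 7 of 15 were below 0 and the median of all tested probes moved up to 0.21, and relative to that shift 10 of 15 were below it.

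Kif5c, a heavy chain of conventional kinesin known mainly from neurons, was lower at each stage. It read 12.04, 12.29 and 12.25 in virgin, 9.14, 9.38 and 9.28 at day 3, and 7.35, 7.97 and 7.17 at day 7. The stages were far apart and did not overlap, and even at day 7 the signal stayed above background. Compared with virgin, Kif5c was 7.60-fold lower at day 3 (-2.93 ± 0.19, adjusted p = 5.62e-05) and 25.9-fold lower at day 7 (-4.70 ± 0.19, adjusted p = 2.27e-06). At day 7 it was also 3.41-fold lower than at day 3 (-1.77 ± 0.19, adjusted p = 0.000907). The other Kif5c probe lay under background on all arrays (6.15 to 6.45), so that the result rests on a single probe. The conventional kinesin genes of the same subfamily were not called. Kif5b, which is found in most tissues, differed by 0.06 ± 0.12 at day 3 and 0.09 ± 0.12 at day 7, and Kif5a by 0.33 ± 0.19 and 0.22 ± 0.19. Their tested probes lay close to background, at 6.61 to 7.05 for Kif5b and 6.33 to 7.20 for Kif5a. A fall like that of Kif5c could not be seen on them. Markers of neurons and glia were mostly at background. The mean of 10 such genes was 6.97 to 6.98 in virgin. At day 3 it was 6.79 to 6.86, and at day 7 it was 6.72 to 6.77. Snap25, Stmn2, Nefl and Tubb3 were below background as group means. Mbp, a myelin gene, was lower at day 3 (-1.15) and at day 7 (-1.75) than in virgin on its brightest probe. Dimmer Mbp probes gave -0.21 and -0.06 at day 3, and -0.23 and 0.19 at day 7, without a call. Map2, above background on all 9 arrays, differed from virgin by 0.21 at day 3 and -0.12 at day 7. For Syt1 the differences were -0.28 and -0.20, and neither gene was called. The part of neurons and glia in the Kif5c result was not tested.

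**Figure D3:**
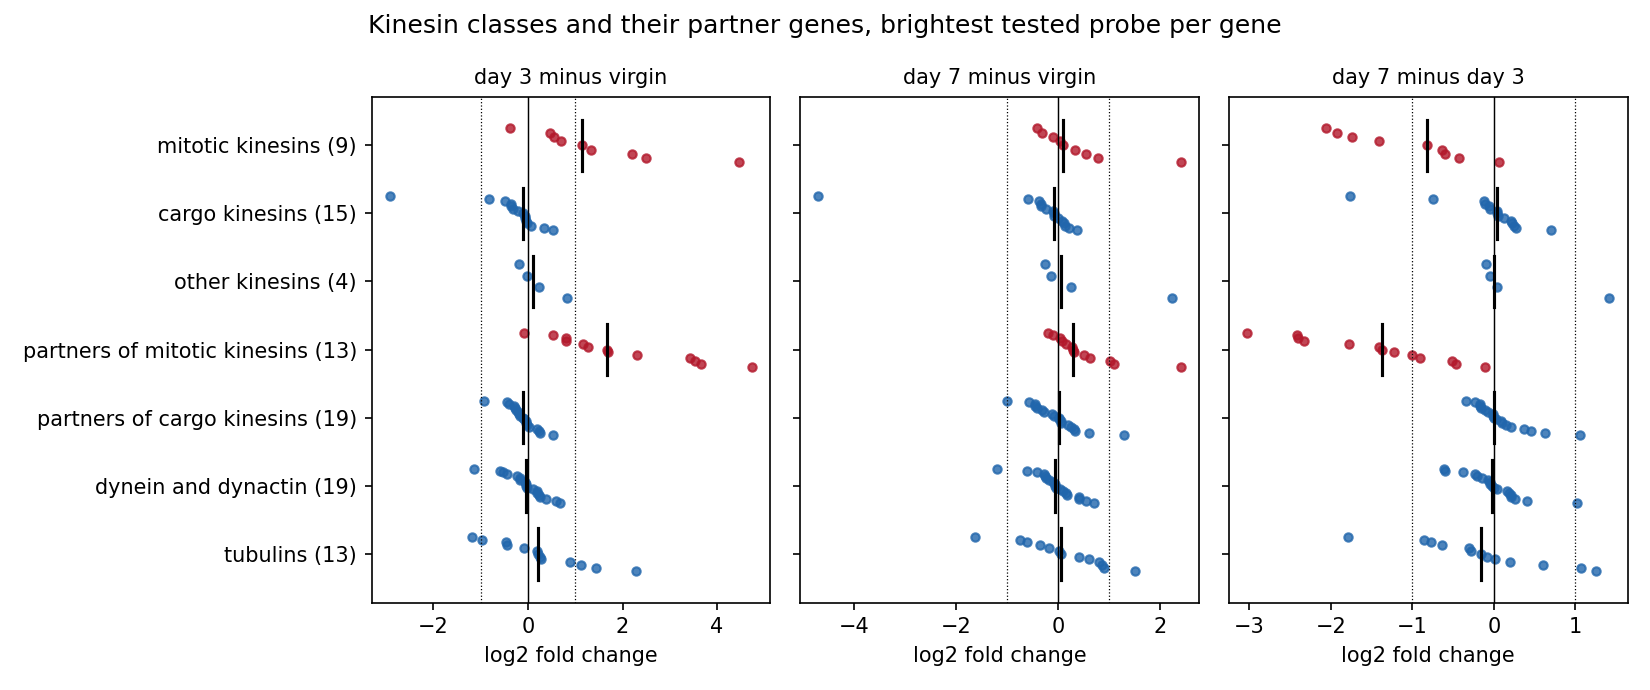
Log2 fold changes (horizontal axes) of the brightest tested probe of each gene in the kinesin classes and in the lists of partner genes (rows, number of tested genes in brackets), for the comparisons of day 3 with virgin, day 7 with virgin and day 7 with day 3. Each point is a gene, black bars are medians and dotted lines mark a 2-fold change, and the mitotic kinesins and their partners have medians of 1.15 and 1.68 at day 3 against -0.10 and -0.11 for the cargo kinesins and their partners.

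Among the cargo kinesins that passed the adjusted p but not the minimum fold, signs were mixed. At day 3 they were Kif1b, a carrier of mitochondria and vesicles (-0.82 ± 0.18), Kif1c, a carrier of vesicles and mRNA (-0.49 ± 0.12), Kif13b, which carries membrane proteins (-0.36 ± 0.10), Kif3c (-0.32 ± 0.11) and Kif3b (0.52 ± 0.13). Kif3b and Kif3c are alternative partners of Kif3a in kinesins that serve cilia and vesicle transport. Their values ran opposite ways between the days. Kif3b read 8.08, 7.68 and 7.84 in virgin, 8.45, 8.51 and 8.19 at day 3, and 7.72, 7.61 and 7.58 at day 7, and Kif3c read 9.77, 9.77 and 9.92, then 9.67, 9.51 and 9.31, then 10.12, 10.33 and 10.16. Day 3 animals were thus the highest for Kif3b and the lowest for Kif3c in the deposited normalization. When the arrays were scaled to a common median, the day 3 difference of Kif3c from virgin turned to 0.39 (adjusted p = 0.236), while that of Kif3b was 1.11 and was called. Under the same scaling the day 3 differences of Kif1b, Kif1c and Kif13b shrank to -0.11, -0.12 and -0.10, and none of these passed the adjusted p. Between day 7 and day 3, the difference was -0.75 ± 0.13 for Kif3b (adjusted p = 0.00624) and 0.70 ± 0.11 for Kif3c (adjusted p = 0.00537), in neither case a 2-fold change. Against virgin at day 7, Kif1b (-0.58 ± 0.18), Kif1c (-0.37 ± 0.12), Kif13b (-0.33 ± 0.10) and Kif3c (0.38 ± 0.11) passed the adjusted p alone. Median scaling turned Kif1b to 0.03 there and left Kif1c at 0.0033. Kif3a differed by -0.36 ± 0.18 at day 3 and -0.09 ± 0.18 at day 7 against virgin on its brighter tested probe, and by 0.09 ± 0.16 and 0.42 ± 0.16 on the other, with no call.

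Kif1b showed how far the probes of a gene can part. Of its 9 probes 6 were tested, and at day 3 against virgin they differed by -0.82, -0.68, 0.91, 0.40, 0.15 and -0.14. The probe with the positive difference of 0.91 read 9.96, 7.85 and 8.45 in virgin, so that virgin replicate 1 alone was as high as the day 3 animals (9.19, 9.57 and 10.23). Without that animal Kif1b was called at both days, and the number of cargo kinesins called against virgin became 2 at each. Probes of Kif1c also differed in sign at day 3, at -0.49 and 0.54. The tested cargo kinesins Kif1a, Kif13a, Kif17, Kif21a, Kifc2 and Kifc3 were called nowhere. Kif16b, a carrier of early endosomes, and Kif21b, which limits microtubule growth in neurons, were at background in all groups.

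**Figure D4:**
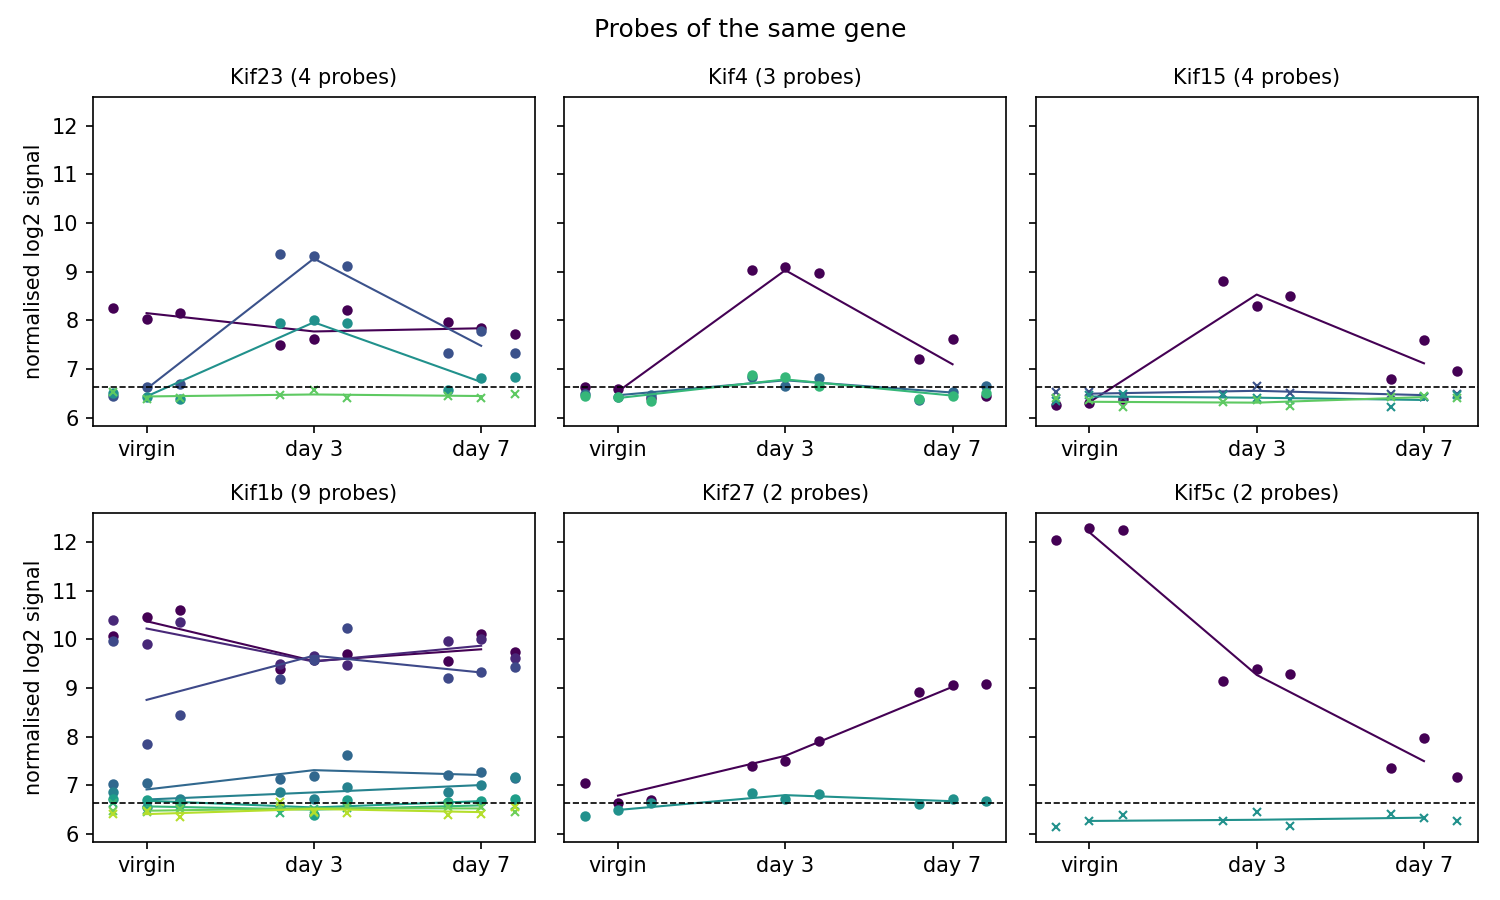
Normalized log2 signal (vertical axis) of every probe of 6 kinesin genes by stage (horizontal axis), with a color and a line through the group means for each probe, circles for tested and crosses for untested probes, and a dashed line at the background of 6.64. A single probe carries the calls of Kif4, Kif15, Kif27 and Kif5c, and a pair of probes those of Kif23. The probes of Kif1b run in both directions.

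The genes that work with cargo kinesins were called about as often as all tested genes. Of 19 tested partners, among them the light chains of conventional kinesin, 0 were called at day 3 against virgin (median -0.11). The shares over all tested genes were 2.97% higher and 3.15% lower. Against virgin at day 7, 1 partner was called higher and 1 lower, beside 3.71% and 3.86% of all tested genes. Between the days 1 was called higher, beside 2.75%. At day 7, Rhot2, a GTPase that links motors to mitochondria, was higher than in virgin (1.30 ± 0.21) and Trak1, an adaptor of the same machinery, was lower, by just over the minimum fold (SE 0.14, adjusted p = 0.00164). A dimmer tested Rhot2 probe differed from virgin by 0.62 and was not called. Dynein and dynactin, the motor and cofactor for transport toward the minus end, gave 1 called gene of 19 at each comparison, a count close to the shares over all tested genes (3.15% lower at day 3 and 3.86% lower at day 7 against virgin, 2.75% higher between the days). Ndel1, a regulator of dynein, was lower than in virgin at day 3 (-1.15 ± 0.12) and day 7 (-1.20 ± 0.12), and the dynactin subunit Dctn2 was higher at day 7 than at day 3 (1.01 ± 0.09). Other tested Dctn2 probes gave 0.38 and 0.01 between the days, without a call.

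Tubulins, the track on which all kinesins run, included several called genes. Of 13 tested genes, 3 were higher and 1 lower at day 3 than in virgin, beside 2.97% and 3.15% of all tested genes. Tubb5, a beta tubulin abundant in dividing cells, was higher at day 3 (2.29 ± 0.10) and at day 7 (1.52 ± 0.10) than in virgin, Tuba1b at day 3 (1.44 ± 0.35), and so was Tubg1, the gamma tubulin that seeds microtubules at the spindle poles (1.11 ± 0.19). At day 7 against virgin 1 tubulin was called higher and 2 lower, beside 3.71% and 3.86% of all tested genes. Tuba8 was lower at day 7 (-1.62 ± 0.32). Tubb2b was lower at day 3 (-1.20 ± 0.18), and its probes disagreed at day 7, where the brightest differed from virgin by 0.06 ± 0.18 and another was called lower (-1.43 ± 0.19). Between the days 2 were called higher and 1 lower, beside 2.75% and 2.29% of all tested genes. Tuba1b was lower at day 7 than at day 3 (-1.79 ± 0.35). Tuba1a (1.065 ± 0.225) and Tubb2b (1.255 ± 0.183) were higher on their brightest probes. Other tested probes were not called, at -0.29 for Tuba1a and 0.02 and 0.42 for Tubb2b. Tubulin genes are close copies of each other, and it was not tested how well their probes keep them apart.

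Of the kinesins with other roles, Kif27 changed. Kif27, a relative of the Hedgehog kinesin Kif7 that is known from motile cilia, read 7.04, 6.64 and 6.70 in virgin, 7.40, 7.50 and 7.92 at day 3, and 8.93, 9.06 and 9.08 at day 7. The stages did not overlap. It was 4.70-fold higher at day 7 than in virgin (2.23 ± 0.16, adjusted p = 5.44e-05) and 2.67-fold higher than at day 3 (1.42 ± 0.16, adjusted p = 0.00104), while the day 3 difference from virgin was 0.82 ± 0.16 (adjusted p = 0.00952), under the minimum fold. Kif27 was the only kinesin whose mean was highest at day 7 among the 8 called in any comparison. Its other tested probe lay close to background, at 6.36 to 6.85, and was not called. It differed from virgin by 0.30 at day 3 (limma adjusted p = 0.0617) and 0.18 at day 7. Between day 7 and day 3 it ran the other way, at -0.12 ± 0.09. The mean of the 9 basal markers was higher at day 7 as well, at 7.65 to 8.65 against 6.60 to 7.21 in virgin, and the part of basal cells in the Kif27 result was not tested. Kif24, a depolymerase that holds back cilium assembly, differed by 0.46 ± 0.11 at day 3 on a dim probe (at least 1.15-fold, adjusted p = 0.0264) and by 0.22 ± 0.25 on the brighter, and the dim probe differed by -0.35 ± 0.11 between day 7 and day 3 (adjusted p = 0.0819). Kif2a, which trims microtubules in neurons and at spindle poles, and Kif9, known from sperm flagella, were not called, at -0.02 ± 0.10 and -0.20 ± 0.12 at day 3. Kif7, Kif12 and Kif26a were at background in all groups.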

How the data were processed

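Total RNA of sorted HR+ cells was measured on Illumina Mouse WG-6 v2.0 bead arrays. The authors deposited log2 values, which they had quantile normalized in Partek Genomics Suite 6.6 without a named background correction, and these were the main values. They also deposited raw intensity values on the linear scale, used for alternatives. Quantile normalization made here from the raw values differed from the deposited log2 values by 0.0238 on average. The columns for detection p-values hold no values. Gene names came from the platform annotation (34885 of 45281 probes with 1 symbol, 18 with several, 10378 with none). The array has no genome build.

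The 18707 probes with a group mean at or above a signal of 100 were fitted in limma 3.58.1 (R 4.3.3) with all 9 arrays and no block, and p-values were adjusted over all of them by Benjamini and Hochberg. The fit was tested on simulated data. A gene has the value of its brightest probe, and other probes are given where a call or a described pattern differs on them. All members called in any comparison were named with the values of all arrays, those that passed only the adjusted p by their difference, and up to 4 called genes per partner list and comparison. Kinesin classes, partner lists and marker lists were chosen with earlier results of these data known. The number of arrays limits the precision. Replicates are separate animals. Same-numbered animals did not deviate together (correlations of -0.0531 to 0.0726), so numbers were not used as pairs.

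Alternatives were other normalizations and a background correction, other filters, Cyber-T (the methods' regularized test), an intensity trend, fits of 2 groups, other thresholds, the brightest probe alone, Kif2a as a mitotic kinesin, the replicate number as a block and each array left out. Plots used matplotlib 3.10.9 under Python 3.11.15.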

Additional observations from a re-analysis of the deposited data

Results flagged for a closer look

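For 7 kinesin genes the change against virgin differed between the days, by limma's test of day 7 against day 3, in which the virgin animals cancel. The log2 difference of day 7 from day 3 was -2.05 for Kif22, -1.93 for Kif4, -1.79 for Kif23, -1.74 for Kif2c and -1.41 for Kif15, all mitotic kinesins that had been higher at day 3 than in virgin. It was -1.77 for Kif5c, which was lower than virgin at both days and lowest at day 7. For Kif27 it was 1.42, and this gene was called higher than virgin at day 7 only. In each of the 7 genes the day 7 and day 3 animals did not overlap on the called probe. The brightest Kif23 probe was not called, with a difference of 0.07 ± 0.18 (adjusted p = 0.897) and overlapping animals. On the dimmer tested probe of Kif27 the difference was -0.12 ± 0.09 (adjusted p = 0.494), also without a call. The Kif2c call was lost without day 3 replicate 1, where the difference was -1.60.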

How the results depend on the processing

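The 17 calls of single kinesin genes were recomputed on the brightest called probe of each gene under the alternatives, which gave 389 values. None of these was reversed, 379 kept direction and call, and 10 lost the call, all of them Kif2c. They hold no Kif23 value for the brightest probe alone, since the brightest Kif23 probe was not called. That setting lost the Kif23 calls, and the day 3 difference on that probe was -0.38. Mitotic calls were then 5 in place of 6 at day 3 and 4 in place of 5 between the days. Counts of called genes moved as follows. Without a minimum fold, cargo calls at day 3 became 6 in place of 1, at day 7 against virgin 5 in place of 1 and between the days 3 in place of 1. Under the same setting, mitotic calls became 9 in place of 6 at day 3, 9 in place of 5 between the days and 3 in place of 1 at day 7 against virgin. Calls of the other kinesins became 2 in place of 0 at day 3 and 2 in place of 1 between the days. Mitotic calls at day 3 were 5, without Kif2c, under cyclic loess (another normalization), with an adjusted p of at most 0.05, or without the filter on dim probes. Between the days, 6 mitotic genes were called with median scaling (Kif20b added). Median scaling gave 3 cargo calls at day 3 (Kif1b and Kif3b added) and 2 at day 7 against virgin, 2 mitotic calls at day 7 (Kif23 added) and 1 call of the other kinesins at day 3. It also moved the median log2 difference of all tested probes to 0.207 at day 3 and 0.179 at day 7 against virgin, and raised the share of called genes that were higher to 94.5% and 88.4%, beside 48.5% and 49% with the deposited values. Between the days that share was 43.4%, beside 54.6%. Background correction by normexp gave 3 mitotic calls at day 7 against virgin. With each array left out, mitotic calls ranged from 5 to 6 at day 3, 4 to 5 between the days and stayed at 1 at day 7 against virgin, and cargo calls ranged from 1 to 2 at day 3 and at day 7 against virgin, with 2 reached without virgin replicate 1. With the replicate number as a block the counts were those of the main analysis, 6 mitotic and 1 cargo call at day 3. A block for the slide could not be fitted, since the headers name no slide. The causes of these shifts were not tested. Signals near background left 9 kinesin genes untested, and many virgin values of the mitotic kinesins lie there. They also limit what can be said of tested cargo kinesins such as Kif13a, Kif17, Kif21a, Kif5a, Kif5b and Kifc3.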
